A study of Mus musculus with 12 samples.

Results

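Full-thickness skin was compared with separated epidermis in newborn mice (postnatal day 0, C57BL/6 background), with the 2 Krt1 genotypes given equal weight. The comparison used all 12 arrays of the series: Krt1-/- skin, Krt1-/- epidermis, Krt1+/+ skin and Krt1+/+ epidermis, 3 arrays each. For each gene, skin minus epidermis was taken in Krt1-/- and in Krt1+/+ mice and the 2 differences were averaged. A gene is called described as higher in a tissue when this mean difference passed the test and its arrays lay apart in both genotypes. That is, in each genotype separately, all 3 arrays of that tissue lay above all 3 arrays of the other. By that rule 2209 of 12099 tested genes were described, 1327 higher in skin and 882 higher in epidermis. Within gene lists, genes counted as higher in skin or in epidermis passed on the mean difference alone and need not be described. The labels name biotin-labelled total RNA from single samples and do not say whether replicates came from separate mice, so p-values speak of the variation among these samples only, and part of it may come from technique.

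Skin is a layered organ. The epidermis is a sheet of keratinocytes that divide in the basal layer, differentiate as they move outwards and end as lipid-embedded cornified cells. It also houses melanocytes, Langerhans cells and gamma-delta T cells. The dermis beneath is a collagen-rich matrix made by fibroblasts and crossed by vessels and nerves, with mast cells and macrophages, and below it lie fat and, in the mouse, the striated muscle of the panniculus carnosus. Full-thickness skin holds the epidermis as well, so an epidermal transcript is diluted in it rather than removed. In such bulk samples, fewer cells of a type and less RNA per cell cannot be told apart.

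Values are log2 intensities after background correction and quantile normalization, and a difference of 1 is a doubling. The arrays detected 17184 to 19931 of 45281 probes (detection p under 0.05), the correlation between arrays of a group ran from 0.966 to 0.986, and no 2 arrays were identical. The first 6 sample columns of the deposited table hold Krt1-/- skin and Krt1+/+ epidermis and the last 6 hold Krt1-/- epidermis and Krt1+/+ skin. An additive difference between these column sets cancels in the balanced mean, but it cannot be told apart from a tissue difference that depends on genotype. A comparison within the first 6 columns sets Krt1-/- skin against Krt1+/+ epidermis, and one within the last 6 sets Krt1+/+ skin against the arrays labelled Krt1-/- epidermis, so each mixes tissue with genotype. Krt1 itself, the keratin that the knockout removes, read 7.45, 8.24 and 6.55 on Krt1-/- skin arrays, 10.06, 11.23 and 9.55 on the arrays labelled Krt1-/- epidermis, 12.01, 12.95 and 11.40 on Krt1+/+ skin arrays and 10.25, 11.39 and 12.44 on Krt1+/+ epidermis arrays. Krt1 was thus low on Krt1-/- skin arrays and not on the arrays labelled Krt1-/- epidermis, and each direction that rests on those arrays carries that limit. Its balanced difference was -1.05 (SE 0.41, adjusted p = 0.0553, limma), with 1 genotype on each side of 0.

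The balanced test called 5129 genes (42.4% of those tested, limma with Benjamini-Hochberg adjustment over all 12099), of which 2257 (18.7%) were higher in skin and 2872 (23.7%) higher in epidermis. Genes that also lay apart in both genotypes made up 11% of tested genes for skin and 7.29% for epidermis. With each array centred on its median in place of quantile normalization, the calls were 1760 and 4322, and the median over all genes moved to -0.24 from -0.09. In the same model of 12 arrays, the tissue contrast called 4776 genes (39.5%) in Krt1-/- and 5051 (41.7%) in Krt1+/+ mice, and the comparisons within the first and last 6 columns called 3504 (29%) and 5033 (41.6%). All 6 skin arrays lay above all 6 epidermis arrays for 1054 genes (8.71%), and below them for 471 (3.89%). Each gene took its brightest kept probe, and sizes depend on the probe: where a further probe of a named gene gave a difference over 1 log2 unit away from that of the one used, its value stands beside the gene. The sizes were unequal. Of the described genes, 941 in skin and 232 in epidermis differed by more than 2-fold, and 262 in skin and 0 in epidermis by more than 8-fold. The median difference was 1.52 for the skin genes and -0.78 for the epidermis genes. Detection was one-sided too: 212 genes were detected on all 6 skin arrays and on 0 of 6 epidermis arrays, whereas 1 gene, Tyr, showed the reverse.

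**Figure D1:**
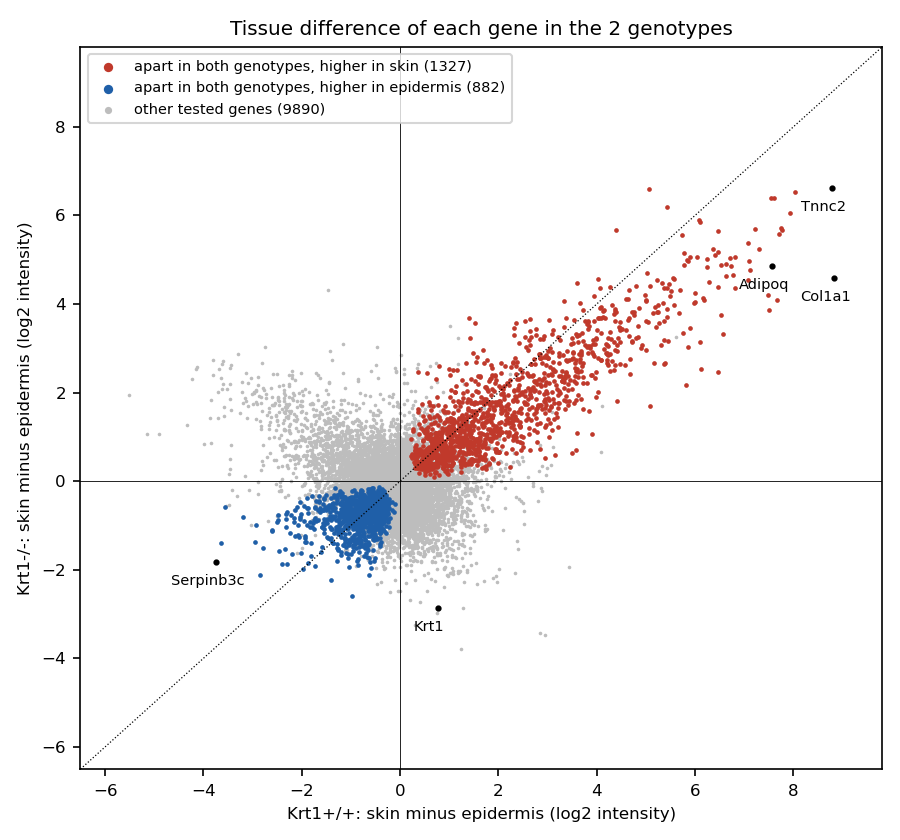
Skin minus epidermis (log2 intensity) for each tested gene in Krt1-/- (vertical axis) and Krt1+/+ mice (horizontal axis), with the 1327 described genes higher in skin in red, the 882 higher in epidermis in blue, other genes in grey, equality dotted and 5 genes marked in black. The skin genes reach far larger differences than the epidermis genes, and many lie below the dotted line; Krt1 lies on opposite sides of 0 in the 2 genotypes.

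The tissue difference of a described skin gene was usually smaller in Krt1-/- than in Krt1+/+ mice, in 968 of 1327 genes. The test of that difference itself passed for 293 of them with a smaller and 35 with a larger difference in Krt1-/- mice, against 3739 of 12099 tested genes (30.9%) in either direction. Among the epidermis genes it passed for 71 with a smaller and 22 with a larger difference. Column set and genotype cannot be told apart in this test. A further 1327 genes (11%) lay apart in both genotypes but in opposite directions, and these are not described as tissue differences.

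Before the values, promoters are shown of 6 genes: 4 sarcomere genes high in skin and 2 keratinocyte genes high in epidermis. These promoters are examples, each shown with a motif that it holds, and do not stand for the genes with the largest differences. Each is the stretch of 250 bases before the annotated start (RefSeq, GRCm38.p6), 5′ to 3′ on the gene's strand, and the capitals mark 1 match to a motif. In Acta1 (chr8:123894776-123895025, minus strand) and Actc1 (chr2:114052876-114053125, minus strand) the capitals mark a CArG box, the motif of serum response factor. In Myh8 (chr11:67276874-67277123, plus strand) and Klhl41 (chr2:69669870-69670119, plus strand) they mark a match to the MEF2 motif, named for the myocyte enhancer factors. In Serpinb2 (chr1:107511173-107511422, plus strand) and Scel (chr14:103513091-103513340, plus strand) they mark TGANTCA, the core of the AP-1 motif.
Acta1: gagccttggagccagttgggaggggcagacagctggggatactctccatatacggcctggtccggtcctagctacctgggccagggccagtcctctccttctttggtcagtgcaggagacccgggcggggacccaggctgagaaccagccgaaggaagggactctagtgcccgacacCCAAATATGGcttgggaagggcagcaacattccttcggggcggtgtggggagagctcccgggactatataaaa
Actc1: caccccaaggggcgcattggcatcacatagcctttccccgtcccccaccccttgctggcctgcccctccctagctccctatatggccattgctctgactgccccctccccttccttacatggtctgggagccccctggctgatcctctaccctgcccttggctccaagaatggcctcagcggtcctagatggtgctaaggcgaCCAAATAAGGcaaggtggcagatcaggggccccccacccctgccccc
Myh8: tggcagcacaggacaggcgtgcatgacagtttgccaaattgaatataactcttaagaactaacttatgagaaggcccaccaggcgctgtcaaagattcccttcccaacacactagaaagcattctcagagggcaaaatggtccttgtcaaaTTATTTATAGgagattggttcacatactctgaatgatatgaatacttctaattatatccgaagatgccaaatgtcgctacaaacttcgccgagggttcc
Klhl41: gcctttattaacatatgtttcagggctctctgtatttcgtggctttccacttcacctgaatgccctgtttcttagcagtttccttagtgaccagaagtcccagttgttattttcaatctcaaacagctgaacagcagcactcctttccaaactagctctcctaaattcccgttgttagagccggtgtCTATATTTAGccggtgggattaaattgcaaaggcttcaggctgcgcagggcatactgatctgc
Serpinb2: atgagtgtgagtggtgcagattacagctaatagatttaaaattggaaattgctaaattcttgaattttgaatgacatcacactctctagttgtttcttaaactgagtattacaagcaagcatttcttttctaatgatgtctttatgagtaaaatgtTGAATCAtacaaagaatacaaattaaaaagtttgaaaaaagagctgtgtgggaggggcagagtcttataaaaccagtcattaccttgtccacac
Scel: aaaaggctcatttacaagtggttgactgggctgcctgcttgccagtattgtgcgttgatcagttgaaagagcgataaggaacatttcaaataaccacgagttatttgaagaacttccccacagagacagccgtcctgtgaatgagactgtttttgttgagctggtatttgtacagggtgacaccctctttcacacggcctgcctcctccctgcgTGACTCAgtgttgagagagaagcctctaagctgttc
Both strands were searched, and promoters of 31 of the 40 tested sarcomere genes were matched by symbol. A CArG box was found in 6 of these 31 (19.4%), against 378 of all 27025 promoters in the table (1.4%), and a MEF2 match in 8 (25.8%), against 813 (3.01%). Outside the sarcomere list the muscle lists held few matches: a CArG box was in 0 of 16 excitation and calcium, 0 of 17 energy and 0 of 6 regulator promoters, and a MEF2 match in 3, 1 and 0 of these, while 3 of 12 immediate early promoters (25%) held a MEF2 match. TGANTCA was found in 1856 of all promoters (6.87%). Of the lists of the 2 genes shown, it was in 4 of 23 matched promoters of epidermal proteases and inhibitors (17.4%) and in 5 of 15 of the cornified envelope list (33.3%). Other keratinocyte lists ran from 0 of 17 late cornified envelope and 0 of 9 basal layer promoters, through 1 of 24 barrier lipid and 3 of 14 suprabasal promoters, to 9 of 12 small proline-rich promoters (75%), and 5 of 19 interferon promoters (26.3%) held it too. A match describes the letters and does not show binding.

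Striated muscle gave the largest differences of the comparison. Of 40 tested sarcomere genes, 38 were higher in skin and 0 in epidermis, with a list median of 4.68 beside -0.09 for all genes. Myh4 and Smyd1 did not pass. The mean level of the list ran from 8.63 to 10.08 on skin arrays and from 4.82 to 5.67 on epidermis arrays, without overlap. Below, levels of a gene are given as the lowest, the median and the highest of the 6 arrays of a tissue.

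Tnnc2, the calcium-binding troponin of fast fibres, read 11.93, 12.87 and 13.76 in skin, against 4.32, 4.70 and 7.29 in epidermis. The highest epidermis array was the one labelled Krt1-/- epidermis replicate 1, and it still lay below every skin array. The balanced difference was 7.70 (SE 0.38, adjusted p = 2.48e-09), with 6.62 in Krt1-/- and 8.78 in Krt1+/+ mice. Tnnt3, the fast troponin that binds tropomyosin, differed by 6.73 (SE 0.31) and Tpm2, a tropomyosin, by 6.64 (SE 0.25), though the 2 other Tpm2 probes gave 0.94 and 1.47.

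The actins of muscle behaved alike. Actc1, the cardiac alpha actin that developing skeletal muscle also uses, read 11.16, 12.15 and 13.01 in skin and 4.30, 4.80 and 6.10 in epidermis, a difference of 7.27 (SE 0.27, adjusted p = 5.86e-10), and 5.19 by a second probe. Acta1, the skeletal alpha actin, read 13.47, 13.90 and 14.38 in skin, against 5.97, 6.86 and 8.35 in epidermis, and differed by 6.96 (SE 0.33). Myh8, the perinatal myosin heavy chain, read 13.35, 14.40 and 14.63 in skin and 6.38, 7.05 and 9.67 in epidermis. Its difference of 6.72 (SE 0.37), like those of Acta1 and Col1a1, sits near the bright end of the scale, where folds may be compressed. Myh3 was not analysed here. Actn2 and Pdlim3, parts of the Z-disc, differed by 6.45 and 6.05 (4.95 by a second Pdlim3 probe), and Des, the muscle intermediate filament, by 5.32.

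Genes for the handling of calcium and energy followed. Of 23 excitation and calcium genes, 21 were higher in skin and 0 in epidermis (median 2.29). Atp2a1, the calcium pump of fast sarcoplasmic reticulum, read 11.98, 13.05 and 13.70 in skin and 5.52, 5.73 and 7.22 in epidermis (difference 6.99, SE 0.32). Sln, sarcolipin, the inhibitor of that pump, was not detected on the Krt1+/+ epidermis arrays. It was at least 117-fold higher in skin on balance, with a measured log2 difference of 6.06 in Krt1-/- mice. Casq2, a calcium store protein, was at least 9.86-fold higher. Of 19 energy genes, 17 were higher in skin and 0 in epidermis (median 2.90). Among the 17 were Eno3, the muscle enolase (6.03), Pgam2, the muscle phosphoglycerate mutase (5.53), and Ckm, the muscle creatine kinase. Ckm was at least 66.8-fold higher on balance, with a measured log2 difference of 5.25 in Krt1-/- mice.

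Muscle forms of general machinery were among the genes that differed. Of 82 respiratory chain genes, 15 were higher in skin and 7 in epidermis (median 0.09), beside 18.7% and 23.7% of all tested genes. The 3 largest were muscle forms of cytochrome oxidase subunits: Cox8b (5.99), Cox6a2 (5.82) and Cox7a1 (4.22). In the Krt1+/+ arrays alone, 24 respiratory chain genes were higher in skin and 16 in epidermis. Among 60 cytosolic ribosomal protein genes, Rpl3l, a form found in striated muscle, was at least 25.3-fold higher in skin, and Rpl39l was the only other one higher there. Of the same list, 21 were higher in epidermis, such as Rpl7a (-1.01) and Rpl30 (-0.82), with a median of -0.15, and in the Krt1+/+ arrays alone 11 were. Of 11 myogenic regulators, 9 were higher in skin and 0 in epidermis (median 1.89), including Mef2c (3.91, and 0.83 to 3.24 by its 3 other probes) and Myf6, a muscle determination factor, undetected on all 6 epidermis arrays and at least 10.8-fold higher in skin. The heat shock list was mixed: 5 of 15 genes were higher in skin and 4 in epidermis (median 0.03), and the small heat shock proteins Cryab (2.76), Hspb6 (2.55) and Hspb7 (at least 2.78-fold) were in the first group. In the Krt1+/+ arrays alone the heat shock counts were 3 and 7.

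**Figure D2:**
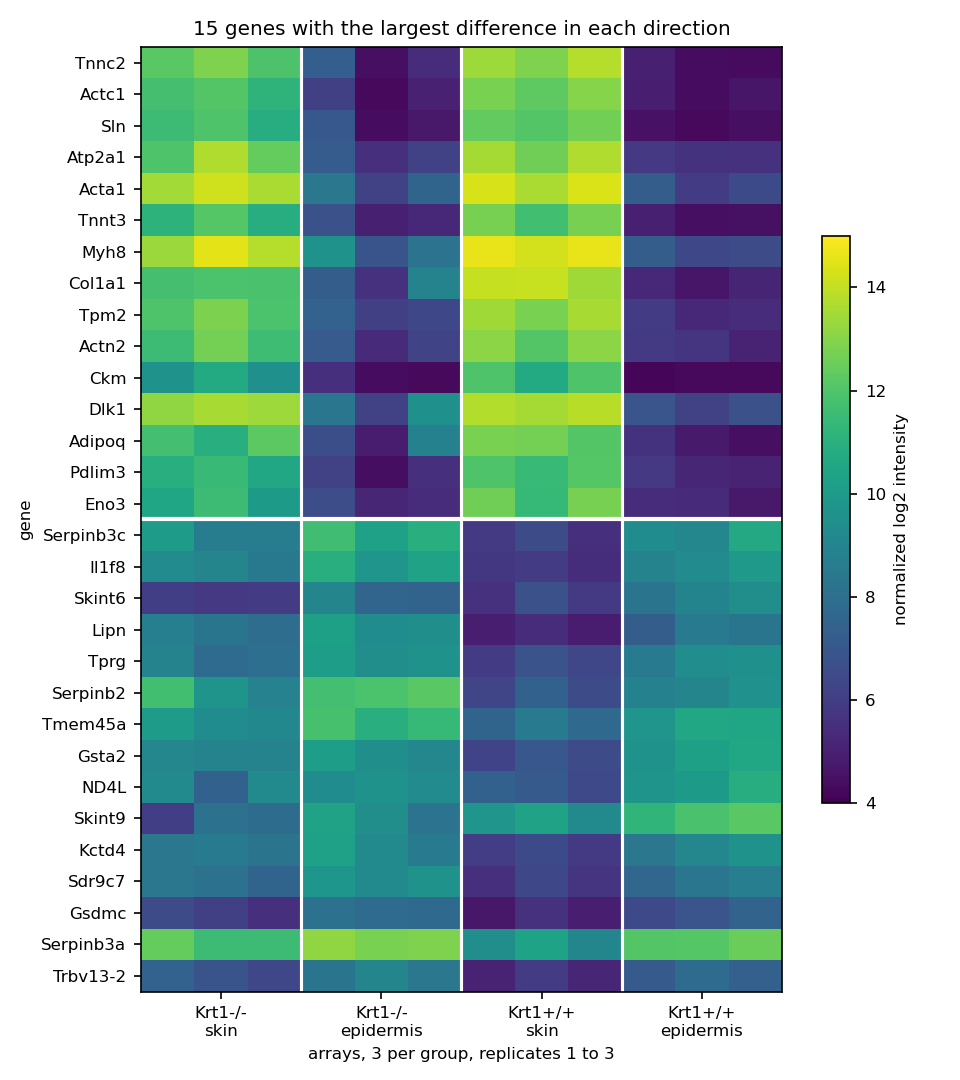
Normalized log2 intensity (colour) of the 15 described genes with the largest difference in each direction (rows; clone-type names left out) on the 12 arrays (columns, replicates 1 to 3 within each group). The upper rows, higher in skin, are mostly muscle genes and are lower on every epidermis array, some of them near the floor and others, such as Myh8 (6.38 to 9.67), well above it; the lower rows, higher in epidermis, remain detected in skin.

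Collagens and the machinery that assembles them made up the second block. Of 10 fibrillar collagens, 7 were higher in skin and 1, Col27a1, in epidermis (median 2.05). Col1a1, the main chain of type I collagen, read 11.74, 11.90 and 11.83 on Krt1-/- skin arrays, against 7.25, 5.56 and 8.92 on arrays labelled Krt1-/- epidermis. On Krt1+/+ skin arrays it read 14.03, 14.06 and 13.44, against 5.24, 4.67 and 5.13 on Krt1+/+ epidermis arrays. The tissues did not overlap in either genotype, and the difference was 6.70 on balance (SE 0.40, adjusted p = 1.43e-08), with 4.58 in Krt1-/- and 8.83 in Krt1+/+ mice (adjusted p = 0.00132 for the difference between these). Col1a2, its partner chain, and Col3a1, of type III collagen, differed by 5.02 (SE 0.25) and 5.83 (SE 0.33), and Col5a1 by 3.88. A second probe of Col3a1 gave a smaller difference, 1.42.

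Of 14 other collagens, 10 were higher in skin and 1, Col4a5, in epidermis (median 1.93). Col6a1 and Col6a2, chains of the microfibrillar type VI collagen, differed by 5.87 and 4.46, and Col14a1, which binds fibril surfaces, by 2.07. Further probes of Col6a1 gave 5.48 and 0.44 and a second probe of Col6a2 gave 1.37, so sizes depend on the probe. Of 17 collagen processing genes, 13 were higher in skin and 0 in epidermis (median 1.03). Among them were the cross-linking oxidases Loxl1 (5.94) and Lox (at least 48.6-fold), the propeptide protease enhancer Pcolce (at least 18.6-fold), Sparc (3.39) and the collagen chaperone Serpinh1 (2.05).

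The rest of the matrix pointed the same way. Small leucine-rich and large proteoglycans were higher in skin for 8 of 11 genes and in epidermis for 0 (median 1.40), led by Ogn (5.58, and 2.50 and 2.20 by its other probes), Lum (5.15) and Prelp (4.26). Dcn, the most familiar of this family, read 12.97, 13.30 and 13.56 on skin arrays, against 11.71, 12.11 and 12.67 on epidermis arrays, and differed by 1.14 (SE 0.13). Of 12 elastic fibre genes, 9 were higher in skin and 0 in epidermis (median 1.60), including elastin itself, Eln (5.14), Mfap5 (at least 28.8-fold) and Emilin2 (3.55). A second Eln probe showed no such difference (0.06, unadjusted p = 0.594, limma). Of 22 other glycoproteins, 15 were higher in skin and 1, Smoc2, in epidermis (median 0.82), among them Nid1 of the basement membrane (4.27, and 2.37 by a second probe), Thbs2 (4.03) and Tnxb (3.96). Matrix proteases and inhibitors gave 13 of 19 in skin and 1, Mmp13, in epidermis (median 1.04), with Timp2 at 2.78 and Mmp2 at 2.27. Adamts12 differed by 4.55, but its 2 other probes gave -0.02 and -0.08.

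Of 20 fibroblast genes, 18 were higher in skin and 1 in epidermis (median 2.48). Pdgfra, the platelet-derived growth factor receptor of fibroblasts, read 10.24, 10.51 and 11.15 in skin and 4.26, 5.24 and 6.39 in epidermis (difference 5.41, SE 0.28). Transcription factors among them were Zeb1 (3.54), Meox2 (at least 10.9-fold) and En1 (at least 5.95-fold). A second Zeb1 probe gave 0.23 (unadjusted p = 0.0564, limma) and a second En1 probe 0.75. Vim, the intermediate filament of mesenchymal cells, read 9.55, 10.75 and 11.69 in skin, against 7.51, 8.09 and 8.20 in epidermis. It differed by 2.71 (SE 0.13), more in Krt1+/+ (3.83) than in Krt1-/- mice (1.59). The exception was Snai2, a zinc finger factor that basal keratinocytes also use, at -0.92 (SE 0.19).

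Signals of the mesenchyme were mostly, not wholly, on the skin side: 18 of 28 growth factors and modulators were higher in skin and 4 in epidermis (median 1.34). Igfbp3 (4.29), Fstl1 (3.96), Sfrp2 (3.07) and Igfbp7 (2.81) were higher in skin, and Fgf10 was undetected on all 6 epidermis arrays and at least 6.63-fold higher in skin. A second Igfbp3 probe gave 2.53, and the other Fgf10 probes 2.50 and 0.33. The 4 higher in epidermis were Pdgfc (-1.54, and -0.39 by a second probe), a ligand of the receptor that Pdgfra encodes, Igfbp2 (-1.40), Fst and Tgfb3. For Igfbp2 the difference did not pass within the first 6 columns (-0.53, adjusted p = 0.16). Of 13 dermal papilla genes, 10 were higher in skin and 0 in epidermis (median 1.71), such as Trps1 (1.94), Rspo3 (1.71, and 0.35 by a second probe) and Fgf7 (at least 2.94-fold).

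Fat and vessels were as one-sided. Of 20 adipocyte genes, 15 were higher in skin and 1, Cebpa, in epidermis (median 2.00). Adipoq, the hormone adiponectin, read 10.92, 12.15 and 12.79 in skin and 4.46, 5.23 and 8.82 in epidermis. The array labelled Krt1-/- epidermis replicate 3 was the highest of its tissue, and the difference was 6.21 (SE 0.50, adjusted p = 3.14e-07). Lpl, lipoprotein lipase, differed by 4.88, Plin4, a lipid droplet coat protein, by 4.60, and Cidec and Car3 by at least 17.3-fold and at least 27.6-fold. Dlk1, a membrane protein of preadipocytes and other fetal mesenchyme, differed by 6.22 (SE 0.41).

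Of 21 blood endothelial genes, 20 were higher in skin and 0 in epidermis (median 3.25). Pecam1, the junction protein of endothelial cells, read 6.25, 7.46 and 8.50 in skin and 4.28, 4.41 and 4.65 in epidermis, where it was undetected on all 6 arrays, and was at least 6.74-fold higher in skin. Cdh5, the endothelial cadherin, and Robo4 were likewise undetected in epidermis and at least 8.38-fold and 14.9-fold higher in skin, with a log2 difference of 2.12 by a second Cdh5 probe. Lymphatic genes were higher in skin for 5 of 7 and in epidermis for 0 (median 2.25), with Lyve1 at least 26.8-fold and Ccl21a at 3.97. Pericyte and smooth muscle genes gave 10 of 15 in skin and 0 in epidermis (median 1.09), including Mylk (3.08, and 2.49 and 1.75 by its other probes) and Myh11 (at least 3.64-fold). Of 6 erythroid genes, 4 were higher in skin and 0 in epidermis (median 1.57). Hba-a1, an alpha globin, read 13.70, 13.22 and 14.21 on Krt1-/- skin arrays, against 12.98, 13.17 and 13.21 on arrays labelled Krt1-/- epidermis. In Krt1+/+ it read 14.25, 14.28 and 13.94 on skin arrays, against 8.58, 10.99 and 13.43 on epidermis arrays, so the Krt1+/+ epidermis arrays differed widely among themselves. Its difference of 1.87 (SE 0.56, adjusted p = 0.0163) and that of Hbb-bs (1.64) did not pass with a trended and robust variance (adjusted p = 0.0624 and 0.0576) or within the last 6 columns (adjusted p = 0.324 and 0.352).

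Genes of immune and pigment cells divided between the tissues. Of 10 mast cell genes, 9 were higher in skin (median 3.99), with a median of 2.91 in Krt1-/- and 5.25 in Krt1+/+ mice. Hdc, which makes histamine, read 11.56, 11.96 and 12.13 in skin and 4.73, 6.15 and 8.94 in epidermis (difference 5.41, SE 0.36, and 4.22 by a second probe), and the proteases Mcpt4 and Tpsb2 were at least 21.5-fold and 17.7-fold higher in skin. The mean level of the mast cell list was 4.90 to 6.81 on epidermis arrays, the highest of them labelled Krt1-/-, and 8.33 to 9.67 on skin arrays. Hpgds, the prostaglandin D synthase that mast cells share with other cells, was the 1 member higher in epidermis (-1.61, SE 0.25), which did not pass within the first 6 columns (-0.35, adjusted p = 0.493). Macrophage genes were higher in skin for 17 of 22 and in epidermis for 0 (median 1.42), led by Pf4 (5.81), F13a1 (at least 32-fold), Mrc1 (4.27) and Cd163, undetected on all 6 epidermis arrays (at least 13.8-fold).

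Genes listed for cells that live within the epidermis mostly showed the opposite order. Of 15 Langerhans and epidermal T cell genes, 9 were higher in epidermis and 1, Thy1, in skin (median -0.57). Only 4 of the 15 were described as higher in epidermis. The list holds Skint1 and Skint9 beside markers of the cells, while Trbv13-2 and Skint6 are outside it. Whether the cells themselves differed in number was not tested. Skint1, which selects the gamma-delta T cells of the epidermis, was detected on 1 of 6 skin arrays and all 6 epidermis arrays and was at least 2.16-fold higher in epidermis. Trbv13-2, a variable segment of the T cell receptor beta chain, differed by -1.83 (SE 0.23), and gave -0.54 (adjusted p = 0.229) within the first 6 columns. Skint6 and Skint9, relatives of Skint1, differed by -2.48 (SE 0.29) and -1.98 (SE 0.40). Skint9 lay apart in each genotype, but within the last 6 columns its difference had the other sign (0.44, adjusted p = 0.569).

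Melanocyte genes were higher in epidermis for 12 of 15, with 4 of them described, and in skin for 1 (median -0.75). Tyr, the tyrosinase that starts melanin synthesis, read 4.25, 4.41 and 4.53 in skin, where it was undetected on all 6 arrays, and 4.77, 5.41 and 6.28 in epidermis, and was at least 1.73-fold higher in epidermis. Pmel, the fibril protein of melanosomes, differed by -1.29 (SE 0.23), Slc45a2, a melanosome transporter, by -0.98, and Sox10, a factor of melanocytes and glia, by -0.97. Ednrb, the endothelin receptor of melanocyte precursors, which endothelial and other cells also express, was the 1 member higher in skin (1.62). The Schwann cell and nerve list was split, with 4 of 9 higher in skin and 3 in epidermis (median 0.13): Pmp22, a myelin protein also made by fibroblasts, differed by 4.54 (1.84 by a second probe), and Gap43, a growth cone protein, was at least 5.63-fold higher in skin.

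**Figure D3:**
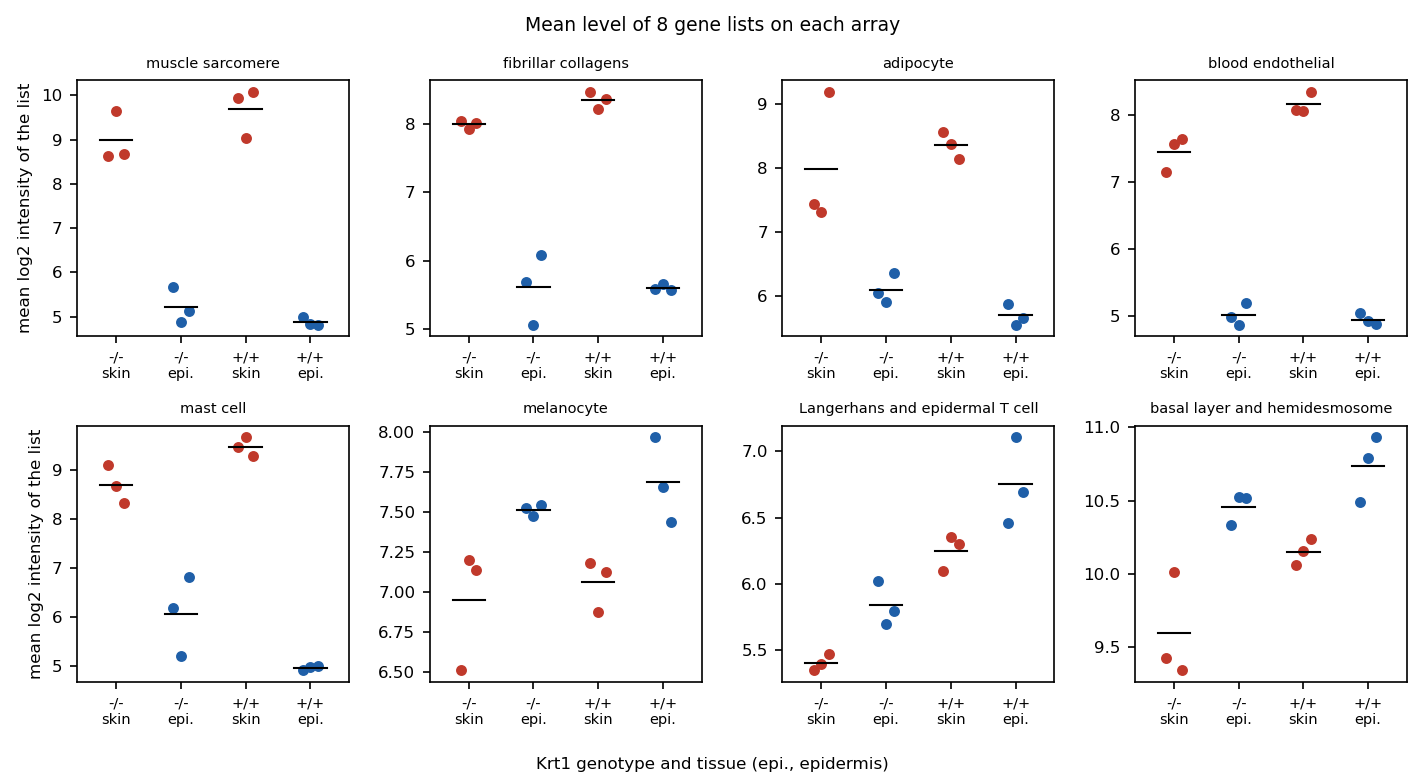
Mean log2 intensity over the members of 8 gene lists on each array (1 point an array), with skin arrays in red, epidermis arrays in blue and a black bar for the mean of each group of 3. Panels have their own vertical ranges; the 5 lists of muscle, collagen, fat, vessels and mast cells are higher in skin in both genotypes, and the melanocyte, Langerhans and T cell and basal layer lists are higher in epidermis in both.

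Keratinocyte genes differed by much less. Of 14 basal layer and hemidesmosome genes, 11 were higher in epidermis (4 of them described) and 0 in skin (median -0.93). In the Krt1+/+ arrays alone 7 were higher in epidermis. Trp63, the p63 transcription factor that maintains stratified epithelia, read 10.64, 11.01 and 11.22 in skin and 11.57, 11.89 and 12.22 in epidermis, apart on all 12 arrays. Its difference of -0.94 (SE 0.13, adjusted p = 9.42e-05) was -0.92 in Krt1-/- and -0.96 in Krt1+/+ mice. Cdh3, the cadherin of basal cells (-1.02), Fermt1, the integrin partner kindlin (-1.07), Lamb3, a chain of the anchoring laminin (-1.11), and Col17a1 of the hemidesmosome (-0.76) were all described, and the last 3 of these did not pass within the last 6 columns (adjusted p from 0.132 to 0.62). Krt5, the basal keratin, passed on balance (-1.25) but did not lie apart in both genotypes, with -2.69 in Krt1-/- and 0.19 in Krt1+/+ mice. Its partner Krt14 was at the bright end on every array, 13.67, 13.85 and 13.93 in skin and 13.39, 13.74 and 13.93 in epidermis, and did not pass (0.11, SE 0.13, adjusted p = 0.489), and the same held for Krt10 of the suprabasal layers (0.13) and the cornified envelope protein Lor (0.10). These 3 small values turned negative with median centring (-0.32, -0.30 and -0.31).

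Of 18 suprabasal genes, 8 were higher in epidermis (3 of them described) and 0 in skin (median -0.52). Among the 8 were Calm5, a calmodulin-like protein (-1.61), and Ly6d (-1.22). Neither passed within the first 6 columns (adjusted p = 0.557 and 0.385). Cornified envelope genes gave 10 of 19 in epidermis, with 3 of them described, and 0 in skin (median -0.35), including Scel, sciellin (-1.43, SE 0.18). Of 18 late cornified envelope genes, 8 were higher in epidermis (2 of them described) and 0 in skin (median -0.32). Their medians were 0.30 in Krt1-/- and -1.02 in Krt1+/+ mice, 6 lay apart in opposite directions, and in the Krt1+/+ arrays alone 15 were higher in epidermis. Lce6a (-1.59) was apart in both genotypes. No small proline-rich gene was described, though 5 of 14 passed as higher in epidermis and 1, Sprr1a, in skin (median -0.29). Sprr1a (0.44) did not pass without a detection filter (adjusted p = 0.067, limma). Within the last 6 columns it was lower in Krt1+/+ skin than on the arrays labelled Krt1-/- epidermis (-1.73, adjusted p = 5.06e-05). Stress keratins were not described either: Krt16, Krt6b and Krt6a passed on balance (-0.99, -1.75 and -0.80) of 10 tested, but within the first 6 columns all 3 were higher in Krt1-/- skin than in Krt1+/+ epidermis (2.32, 4.52 and 3.62), a comparison that mixes tissue with genotype.

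Adhesion and barrier genes leaned the same way. Desmosome genes were higher in epidermis for 8 of 12, with 1 of them described, and in skin for 0 (median -0.56). In the Krt1+/+ arrays alone 5 were higher in epidermis. Dsc3, a desmosomal cadherin of the lower layers, differed by -1.81 (SE 0.27), and by -1.04 (adjusted p = 0.0564) within the first 6 columns. Of 16 other junction genes, 7 were higher in epidermis (2 of them described) and 0 in skin (median -0.32). Cldn1, the barrier claudin, stood at -1.06 and Marveld3 at -0.82. Cdh1, the epithelial cadherin, passed at -0.41 but was 0.48 in Krt1-/- and -1.30 in Krt1+/+ mice, and did not pass within the first 6 columns (adjusted p = 0.116).

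Of 29 barrier lipid genes, 15 were higher in epidermis (6 of them described) and 0 in skin (median -0.54). Lipn, a lipase of late differentiation, read 4.83, 6.67 and 8.73 in skin and 7.24, 8.93 and 10.25 in epidermis, so the tissues overlapped across genotypes but not within either, and the difference was -2.16 (SE 0.23). Sdr9c7, a dehydrogenase that acts on barrier ceramides (-1.94), and Elovl4, which lengthens their fatty acids (-0.95), were also described. Within the first 6 columns Lipn had the other sign (0.31, adjusted p = 0.522), and Sdr9c7 and Elovl4 did not pass (adjusted p = 0.68 and 0.638). Of 18 cholesterol synthesis genes, 10 were higher in epidermis (2 of them described) and 0 in skin (median -0.51). Among the 10 were Msmo1 (-1.34) and Cyp51 (-1.06), which within the first 6 columns gave -0.23 and 0.41 (adjusted p = 0.576 and 0.178).

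Of 31 epidermal proteases and inhibitors, 20 were higher in epidermis (9 of them described) and 0 in skin (median -0.75). Serpinb3c, a clade B serpin outside that list, had the largest difference of the described epidermis genes. It read 10.10, 8.62 and 8.66 on Krt1-/- skin arrays, against 11.61, 10.30 and 10.94 on arrays labelled Krt1-/- epidermis. In Krt1+/+ it read 5.85, 6.50 and 5.52 on skin arrays, against 9.36, 9.08 and 10.63 on epidermis arrays. The tissues were apart within each genotype, while Krt1-/- skin reached the level of Krt1+/+ epidermis. The difference was -2.78 (SE 0.33, adjusted p = 1.94e-05) on balance and -0.56 (adjusted p = 0.407) within the first 6 columns. Serpinb3a (-1.85), Serpinb2 (-2.13) and Serpinb12 (-1.31), which are in the list, were also higher in epidermis. Within the first 6 columns Serpinb3a gave -0.38 (adjusted p = 0.403) and Serpinb2 had the other sign (0.93, adjusted p = 0.209).

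Of 16 keratinocyte cytokines, 8 were higher in epidermis (3 of them described) and 1, Csf1, in skin (median -0.75). Il1f8, of the interleukin 1 family, read 5.46, 7.21 and 9.32 in skin and 8.93, 9.85 and 10.88 in epidermis (difference -2.52, SE 0.23) and gave -0.46 (adjusted p = 0.303) within the first 6 columns. Btc, betacellulin, a growth factor of the epidermis, differed by -1.72. Alarmins and antimicrobial genes were mixed, with 4 of 14 higher in skin and 3 in epidermis (median -0.24). Of all tested genes 18.7% and 23.7% were called, and 2 genes of this list were described in each direction. Camp, a cathelicidin that neutrophils store (1.53), and Pglyrp1 (at least 1.61-fold) were higher in skin, and Pglyrp4 (-1.41) in epidermis. Other genes among the 15 largest on this side were Tprg (-2.15), Tmem45a (-2.08), Gsta2, a glutathione transferase (-2.07), Kctd4 (-1.97), Gsdmc, a gasdermin (-1.86), and ND4L, a subunit of complex I encoded in mitochondrial DNA and 4.01-fold higher in epidermis. Of these, Tprg, Tmem45a and Kctd4 did not pass within the first 6 columns (adjusted p = 0.0529, 0.102 and 0.222), and neither did Btc (0.0676) and Pglyrp4 (0.482). A second Tprg probe gave -1.08.

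Of 24 hair follicle genes, 13 were higher in epidermis (8 of them described) and 4 in skin (1 of them described), with a median of -0.52. The 13 included Lgr6 (-1.43), Sostdc1 (-1.42), Shh (-1.10), Wnt10a (-1.08) and Wnt10b (-0.89). Within the last 6 columns Shh had the other sign (0.37, adjusted p = 0.257). The 4 higher in skin were the inner root sheath keratins Krt71 (3.62 in Krt1-/- and 4.38 in Krt1+/+ mice, SE 1.06 each), Krt27, Krt73 and Krt28. Krt71 did not pass within the first 6 columns (2.97, adjusted p = 0.0504), nor did Wnt10b within the last 6 (-0.30, adjusted p = 0.154). Of 23 epithelial transcription and splicing factors, 12 were higher in epidermis (5 of them described) and 0 in skin (median -0.49). Among the 12 were Ovol2 (-1.21) and Tfap2a (-0.68), of which Tfap2a gave -0.30 (adjusted p = 0.289) within the first 6 columns. Cell cycle genes gave 16 of 24 in epidermis and 0 in skin (median -0.72), and 7 in epidermis in the Krt1+/+ arrays alone. Only 3 of the 24 were described, and 3 lay apart in opposite directions in the genotypes. In the Krt1+/+ arrays alone Top2a (-0.64) did not pass (adjusted p = 0.0726), beside -1.10 on balance. Within the last 6 columns Top2a gave -0.66 (adjusted p = 0.0914), and a second probe gave -0.30 on balance.

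**Figure D4:**
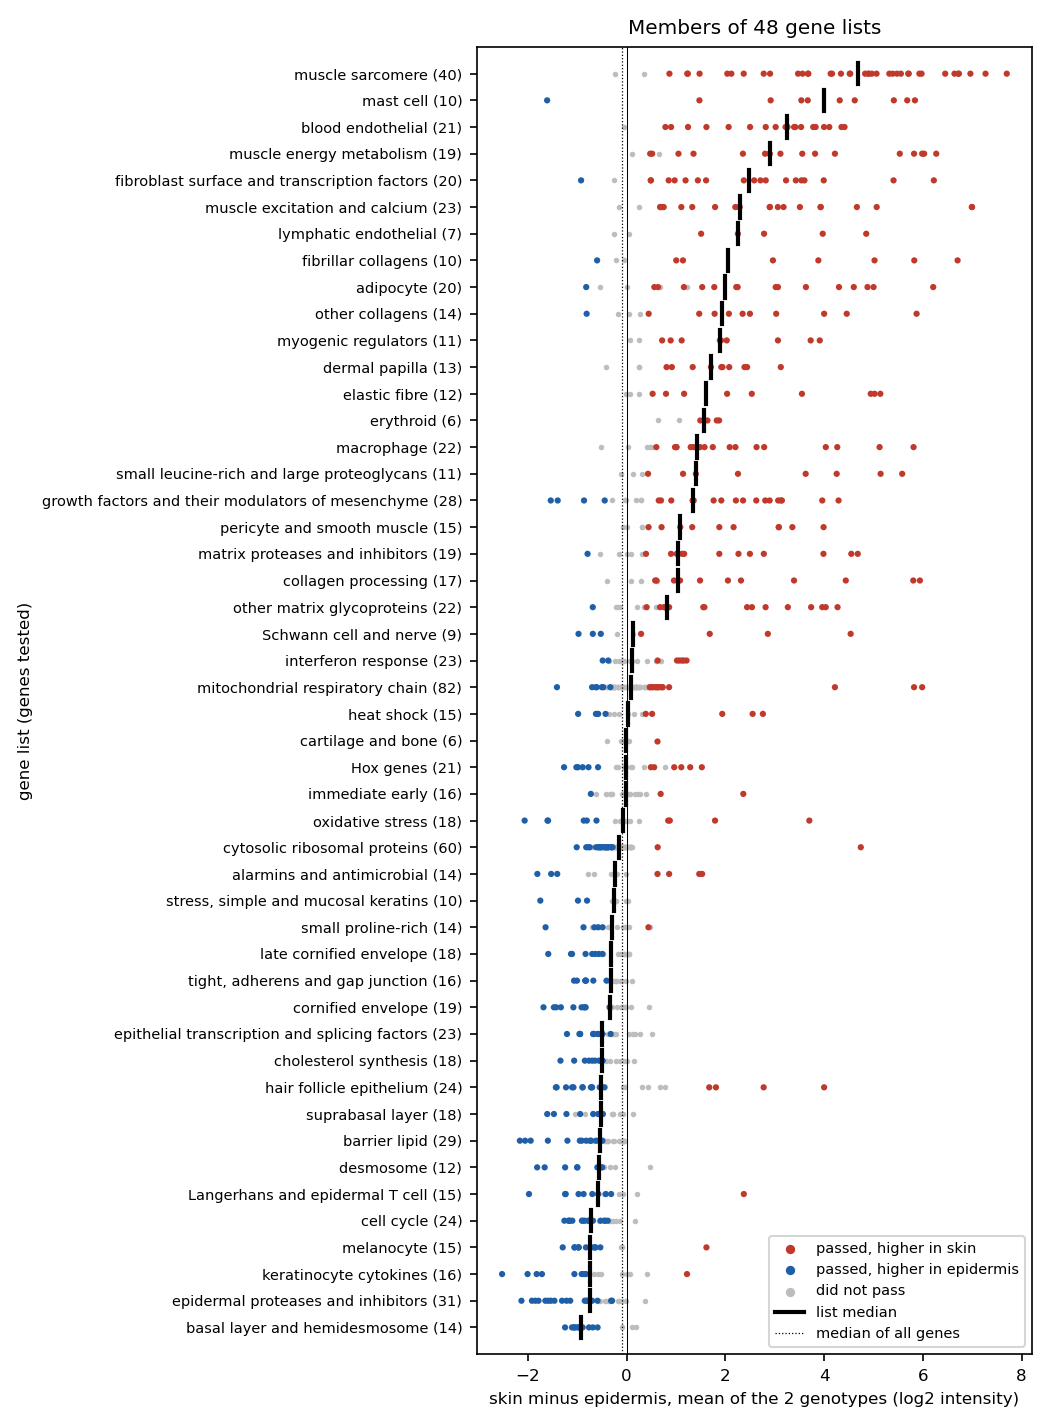
Skin minus epidermis (mean of the 2 genotypes, log2 intensity) for each tested member (points) of 48 gene lists (rows, with the number tested), with members that passed as higher in skin in red, higher in epidermis in blue and the rest in grey. Black bars mark list medians and the dotted line the median of all genes; the 4 muscle lists have medians from 1.89 to 4.68, whereas the keratinocyte lists lie between -1 and 0.

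Hox genes, which record position along the body axis, gave calls in both directions: of 21 tested, 6 were higher in skin and 6 in epidermis (median -0.01), beside 18.7% and 23.7% of all tested genes. Those higher in skin included Hoxd10 and Hoxd9 (at least 2.32-fold and 2.26-fold), with Hoxd4, Hoxd8, Hoxb4 and Hoxc6. Those higher in epidermis were Hoxa5 (-1.02), Hoxb7 (-0.89), Hoxa7, Hoxa2, Hoxb6 and Hoxb2. Response lists showed no common direction. Their counts stand beside the same 18.7% and 23.7% of all tested genes, and no immediate early or interferon gene was described. Immediate early genes gave 2 of 16 in skin and 1 in epidermis (median -0.01), interferon genes 6 of 23 and 2 (median 0.12; 10 and 0 in the Krt1+/+ arrays alone), and oxidative stress genes 4 of 18 and 6 (median -0.08), with Gpx3 (at least 11.6-fold) and Hmox1 (1.79) higher in skin and Slc7a11 (-1.60) in epidermis. Within the first 6 columns Slc7a11 was higher in Krt1-/- skin than in Krt1+/+ epidermis (1.54, adjusted p = 0.0079), and its 3 other probes gave -0.82 to -0.05 on balance. Cartilage and bone genes gave 1 of 6 in skin, Sp7 (0.62), and 0 in epidermis, with a median of 0.00. Sp7 did not pass within the first 6 columns (0.31, adjusted p = 0.208). For 5 of the 6, at least 1 group was undetected on all 3 arrays. The list mean was 4.45 to 4.73 on skin arrays and 4.39 to 4.66 on epidermis arrays. The lowest detected signal of an array was 4.54 to 4.73, so this list cannot serve as a check on deeper tissue.

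Dermal and muscle transcripts were not at the floor on every epidermis array, and the arrays labelled Krt1-/- varied more among themselves. The mean level of the fibrillar collagen list was 5.69, 5.06 and 6.08 on the arrays labelled Krt1-/- epidermis, against 5.59, 5.66 and 5.57 on Krt1+/+ epidermis arrays. The sarcomere list stood at 5.67, 4.87 and 5.13 on arrays labelled Krt1-/- epidermis, against 4.98, 4.82 and 4.82 on Krt1+/+ epidermis arrays. The mast cell list stood at 6.18, 5.19 and 6.81 on the arrays labelled Krt1-/-, against 4.90, 4.97 and 4.98 on the Krt1+/+ arrays, so the groups overlapped for collagens and sarcomere genes and not for mast cell genes. The part of these levels in the smaller tissue differences of Krt1-/- mice was not tested.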

How the data were processed

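Illumina bead arrays measured total RNA of 12 samples. The authors deposited bead intensity per probe, not normalized, with a detection p-value for each probe per the file headers, and a second table of normalized intensity, which on every array holds the same values at each rank. Scanner software and processing versions were not named by the labels or headers read. Intensities were background-corrected from the detection p-values, quantile normalized and put on a log2 scale with limma's neqc (offset 16; limma 3.58.1, R 4.3.3). Probes detected (p under 0.05) on at least 3 of the 12 arrays, of whatever group, were kept, 21712 of 45281. Of all probes, 34885 had 1 gene symbol in the platform annotation, 18 several and 10378 none, and only the first were named. Each gene took its brightest kept probe; of 1274 further probes of described genes, 1162 had the same sign. A linear model of 4 group means was fitted with empirical Bayes variances (8 residual and 5.39 prior degrees of freedom), and the contrasts were tested over 12099 genes with Benjamini-Hochberg adjustment at 0.05. For a group undetected on all 3 arrays a lower bound of the fold was computed against the floor of each array, the lowest signal among its detected probes. Each bound is of the mean over both genotypes. A genotype in which both tissues had at least 1 detected array kept its measured difference, so a single genotype can lie below the bound. Named genes were the 15 largest in each direction, up to 5 per list, a fixed set and members singled out by a count. The 5 genes whose tissue difference differed most between the genotypes, among those that passed for it, were also named. The members and the 48 lists were chosen with earlier results of these data known. Alternatives covered background, scaling, filter, probe choice, variance, replicate block, column set, genotype and each array left out. Symbols were updated through RefSeq, and promoters came from RefSeq (GRCm38.p6).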

Additional observations from a re-analysis of the deposited data

Results flagged for a closer look

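Of 181 genes chosen for naming, 72 had a tissue difference that itself differed between the genotypes (limma, adjusted p under 0.05 over 12099 genes). The value after each gene is the tissue difference in Krt1-/- minus that in Krt1+/+ mice, on the log2 scale. The same contrast is the difference between the first and last 6 sample columns, so genotype and column set cannot be told apart.

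Among genes higher in skin in both genotypes, the difference was smaller in Krt1-/- mice for Tnnc2 (-2.17), Actc1 (-1.51), Tnnt3 (-2.03), Myh8 (-2.11), Col1a1 (-4.25), Tpm2 (-2.13), Ckm (-2.05), Eno3 (-2.13), Vim (-2.25), Pecam1 (-2), Col6a2 (-4), Lox (-2.53), Loxl1 (-2.34) and Pcolce (-2.82). The same held for Sparc (-3.39), Adamts12 (-1.25), Timp2 (-1.03), Mmp2 (-1.73), Prelp (-1), Ogn (-2.46), Lum (-2.77), Eln (-2.03), Mfap5 (-1.97), Emilin2 (-2.25), Thbs2 (-2.72), Tnxb (-1.37), Nid1 (-2.19) and Zeb1 (-1.32). It held as well for En1 (-1.01), Cdh5 (-1.12), Myh11 (-0.84), Mylk (-1.18), Mcpt4 (-2.95), Tpsb2 (-3.59), Hdc (-2.08), F13a1 (-2.09), Rspo3 (-0.85), Hspb6 (-1.07), Cryab (-1.83), Hmox1 (-2.11) and Hoxd9 (-1.16). It was larger in Krt1-/- mice for Sfrp2 (1.07).

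Among genes higher in epidermis in both genotypes, the difference was smaller in Krt1-/- mice for Serpinb3c (1.91), Il1f8 (2.24), Lipn (1.58), Gsta2 (2.98), ND4L (2.39), Kctd4 (1.93), Serpinb3a (1.5), Pdgfc (1.23), Wnt10a (1.25), Krt16 (1.22), Scel (1.21), Sprr2a1 (2.88), Lce6a (1.49), Dsg2 (1.23), Cldn1 (1.19), Msmo1 (1.5), Defb1 (3.21) and Btc (1.59). It was larger there for Cdk1 (-1.07). A second Sprr2a1 probe gave a tissue difference of -0.32 on balance, beside -1.64 by the one used.

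The 2 genotypes gave opposite signs for Krt1 (-3.63), Krt5 (-2.88), Cdh1 (1.78), Dapl1 (3.95), Sprr2h (4.71), Abca12 (3.74), Stfa3 (7.46), Rpl22l1 (6.7), Top2b (6.67), Lypla1 (6.54) and Selenow (-6.42). Stfa3, a stefin protease inhibitor, differed by 1.94 in Krt1-/- and -5.51 in Krt1+/+ mice, and Top2b, a DNA topoisomerase, by 2.53 in Krt1-/- and -4.14 in Krt1+/+ mice. Selenow, a small selenoprotein, ran the other way, with -3.47 in Krt1-/- and 2.94 in Krt1+/+ mice.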

How the results depend on the processing

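Of 181 genes chosen for naming, 176 passed, and for 110 of them direction and call held in all 27 alternatives; over 4752 pairs of gene and alternative, 111 lost the call and 17 turned sign. Within the first 6 columns 141 genes kept both, 25 lost the call and 10 turned sign, within the last 6 columns 159, 13 and 4, and in the Krt1+/+ arrays alone, an alternative chosen after seeing the data, 171, 4 and 1; the cause was not tested. Signs turned within the first 6 columns for Lipn (0.31), Serpinb2 (0.93), Krt16 (2.32), Krt6b (4.52), Krt6a (3.62), Sprr2a1 (0.21), Sprr2h (3.79), Cyp51 (0.41), Defb1 (0.75) and Slc7a11 (1.54), and within the last 6 for Skint9 (0.44), Krt1 (1.84), Shh (0.37), Dapl1 (0.70) and Sprr1a (-1.73). They turned in the Krt1+/+ arrays alone for Krt1 (0.76), Krt5 (0.19), Lor (-0.027) and Selenow (2.94), without background correction and in the deposited normalized table for Sprr2h (0.079), with median centring for Krt14 (-0.32), Krt10 (-0.30) and Lor (-0.31), and without Krt1+/+ skin replicate 3 for Selenow, whose values with 1 array left out ran from -0.57 to 0.075. The deposited normalized table gave the counts of the setting without background correction because it differed from a quantile normalization of the raw table by at most 3.33e-06. Median centring gave 4322 calls higher in epidermis and 1597 described there. Within the first 6 columns the contrast gave 1829 calls higher in epidermis. With each of the kept probes tested on its own, which tests more features, the calls were 9101 (3591 higher in skin, 5510 in epidermis, 1601 described there), with 8888 in Krt1-/-, 8472 in Krt1+/+ and 6971 for their difference. Against a 1.5-fold minimum, a harder null by construction, they were 1185 (936 and 249; 878 and 189 described), with 1371 in Krt1-/-, 2051 in Krt1+/+, 1471 for their difference and 250 for genotype. Leaving out 1 array at a time, with the set of tested genes chosen anew, gave 4407 to 5153 calls (1995 to 2323 higher in skin and 2412 to 2830 in epidermis), 1320 to 1489 and 898 to 1177 described, 3795 to 4881 in Krt1-/-, 4018 to 5184 in Krt1+/+, 3115 to 3673 for their difference and 2268 to 3043 for genotype. The labels do not say whether same-numbered skin and epidermis samples are paired. Correlations of deviations between same-numbered tissues ran from -0.152 to 0.279, which cannot decide it with so few arrays per group. A replicate block gave 5026 calls and moved Krt1 past the threshold (adjusted p = 0.0321, limma). Arrays have no count depth; their number, and signal near the floor or the bright end, limit precision.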

Other observations

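Some of the described genes belonged to no list. Those below were chosen after their values were seen, and of them only Igf2 is in a list, that of growth factors and modulators. Mest, a hydrolase-like protein, read 9.79, 10.21 and 10.76 in skin and 4.33, 4.45 and 5.77 in epidermis and was at least 40.1-fold higher in skin, with log2 differences of 5.01 and 3.91 by its other probes. Cdkn1c, a cell cycle inhibitor, differed by 4.50 (SE 0.23), Ndn, necdin, by 4.14 (SE 0.23), Grb10, a growth factor receptor adaptor, by 3.54 (SE 0.15, and 0.79 by a second probe), Peg3 by 3.03 (SE 0.26, and 1.87 by a second probe) and Igf2, a fetal growth factor, by 1.36 (SE 0.12). All 6 lay apart in both genotypes.

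Other skin genes outside the lists were Csrp3, a muscle LIM protein (5.76), Flnc, the muscle filamin (at least 44.4-fold), Aqp1, a water channel of endothelium (5.64, and 5.18 and 3.47 by its other probes), Serpinf1 (5.79, but -0.03 by a second probe), Dpt, dermatopontin (5.42), and Osr2, a mesenchymal transcription factor (5.63). On the epidermis side, Mcoln3, a cation channel, read 5.23, 5.54 and 5.93 in skin and 7.23, 7.30 and 7.63 in epidermis, apart on all 12 arrays, and differed by -1.82 (SE 0.12). Ranbp1, a regulator of nuclear transport (-1.75), Tnfrsf18, a receptor of T cells and keratinocytes (-1.78), Fgfbp1, a carrier of fibroblast growth factors (-1.66), and Dnase1l2, a nuclease of cornifying cells (-1.36), were also higher in epidermis.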
